A study of Mus musculus with 24 samples.

Results

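Neonatal mouse microglia were compared with adult mouse peritoneal macrophages on 6 of the 24 Affymetrix Mouse Gene 1.0 ST arrays of the study, 3 for each cell type. The study measured total RNA of 8 cell types, with 3 arrays each, around microglia-like cells derived from induced pluripotent stem cells. The arrays were chosen by their titles alone, and all 18820 genes with a probeset naming that gene only were tested, with the probeset of highest mean level standing for a gene. The neonatal microglia, named neo-MG in the labels, came from C57BL/6NCr mice of the Cx3cr1gfp/+ genotype at postnatal day 5. In that genotype a gene for green fluorescent protein takes the place of 1 copy of the fractalkine receptor gene Cx3cr1. The peritoneal macrophages, named p-Mac, came from adult C57BL/6NCr mice without the reporter. The labels give DMEM/F12 with defined serum as the medium of both, and add growth factors only for cells called gMG, a name that no sample carries. How long the cells were in culture is not given in the sources used here. Genotype, age and cell type therefore cannot be told apart in this comparison, and the labels do not give the animals' sex. The labels do not say if replicates are different mice or cultures. The p-values then cover only how far these samples differ, and that spread may be technical.

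Microglia are the resident macrophages of the brain and arise from progenitors of the yolk sac. In the brain, colony-stimulating factor 1 receptor signalling keeps them alive, and TGF-beta signalling and the transcription factor Sall1 maintain their characteristic genes. The large macrophages of the peritoneal cavity depend on the transcription factor Gata6, which vitamin A derivatives from the surrounding tissue induce. A lavage of the cavity also holds a smaller MHC class II-positive macrophage, B cells and mast cells. Much of the expression that marks either resident macrophage is known to fade in culture.

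Levels are the deposited log2 values, so a difference of 1 is 2-fold. The value after ± is the SD over 3 arrays beside a level and the standard error of the limma fit beside a difference. A gene was called when its adjusted p (limma, Benjamini-Hochberg over 18820 genes) was under 0.05 and its absolute difference, neo-MG minus p-Mac, was at least 1. Of the genes tested, 1133 were called higher in neo-MG, which is 6.02%, and 584 were called lower, which is 3.1%. In all 1717 called genes the 3 neo-MG arrays and the 3 p-Mac arrays did not overlap. The same was not counted over all genes tested, so it adds no support to the calls. A difference of at least 16-fold was reached by 13 genes that were higher in neo-MG and 31 that were lower. For 16531 genes (87.8%) the 95% interval of the difference lay within 1 log2 unit of 0. In bulk RNA a lower value can mean fewer cells that express a gene or less RNA in each cell, and these cannot be told apart.

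The p-Mac arrays had a higher median over all probesets, 8.17 to 8.21 against 7.976 to 7.996 in neo-MG, and a narrower interquartile range, 2.80 to 2.92 against 3.19 to 3.22. The median difference over all genes was -0.14. After each array was centred on its median, it was 0.07, a shift of 0.21, and the calls became 1638 higher and 424 lower. Higher calls thus made up 66% of all calls as reported and 79.4% after centring. All 1133 higher calls and 424 of the lower calls were made in both scalings. Centring moves every difference up by about the same 0.21, so this overlap follows from the shift and adds no support to the calls. In the 4705 genes with the lowest mean level the median difference was -0.21, and in the 4705 with the highest it was 0.17. The medians of gene lists given below are therefore to be read against -0.14 for all genes, against -0.21 where a list is weakly expressed and against 0.17 where it is strongly expressed. Of the 45 lists, 11 had a median whose sign changed with centring, and no direction is given for these. Arrays of 1 group differed by a root mean square of 0.113 to 0.128 in neo-MG and 0.168 to 0.204 in p-Mac, against 0.674 between the group means. Leaving out any 1 array gave 1081 to 1179 higher and 582 to 599 lower calls. The labels and the table used here name no scan date or other batch.

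**Figure D1:**
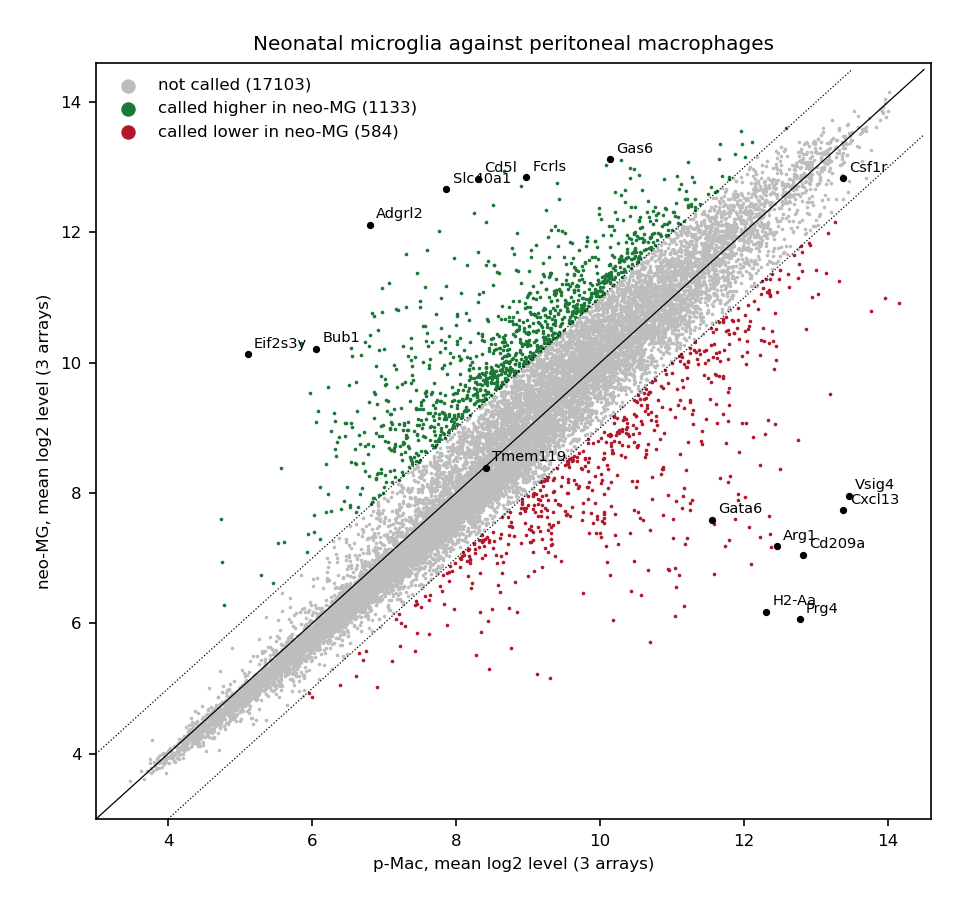
Mean log2 level of each of 18820 genes in p-Mac (horizontal axis) and neo-MG (vertical axis), over 3 arrays each. The solid line marks equal levels and the dotted lines a difference of 1, and the 1133 green and 584 red points are the genes called higher and lower in neo-MG.

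The gene with the largest higher difference in neo-MG was Adgrl2, which encodes the adhesion receptor latrophilin 2. Its levels were 12.21, 12.07 and 12.09 in neo-MG and 7.02, 6.45 and 6.94 in p-Mac. The neo-MG arrays lay together and far above every p-Mac array, and the difference was 5.32 ± 0.09 (39.9-fold, adjusted p = 2.64e-24). The gene has 8 probesets, all higher in neo-MG, by 0.90 to 5.57. Slc40a1, which encodes ferroportin, the exporter of iron from cells, read 12.63, 12.70 and 12.66 in neo-MG and 7.93, 7.77 and 7.90 in p-Mac. Its groups were separated by 4.80 ± 0.10, or 27.8-fold (adjusted p = 4e-23). Cd5l encodes a protein secreted by tissue macrophages. It stood at 12.82, 12.87 and 12.79 in neo-MG and 8.50, 8.19 and 8.20 in p-Mac, a difference of 4.53 ± 0.11 (adjusted p = 1.25e-21).

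Npl, the lyase that cleaves sialic acid, differed by 4.28 ± 0.06, and the secreted metalloprotease Adamts1 by 4.26 ± 0.07. The chemokine receptor homologue Ccr1l1 differed by 4.17 ± 0.09 and the membrane protein Ms4a6b by 4.14 ± 0.13. The olfactory receptor Olfr111 was higher by 4.05 ± 0.12, the cation exchanger Slc24a5 by 3.93 ± 0.10 and the cadherin Fat3 by 3.92 ± 0.08. Among the 15 leading genes were also Bub1, Ccna2 and Stmn1, which serve cell division and the microtubules, and the Y-linked genes Eif2s3y and Uty. Fat3 has 15 probesets, which differed by 1.95 to 5.22.

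**Figure D2:**
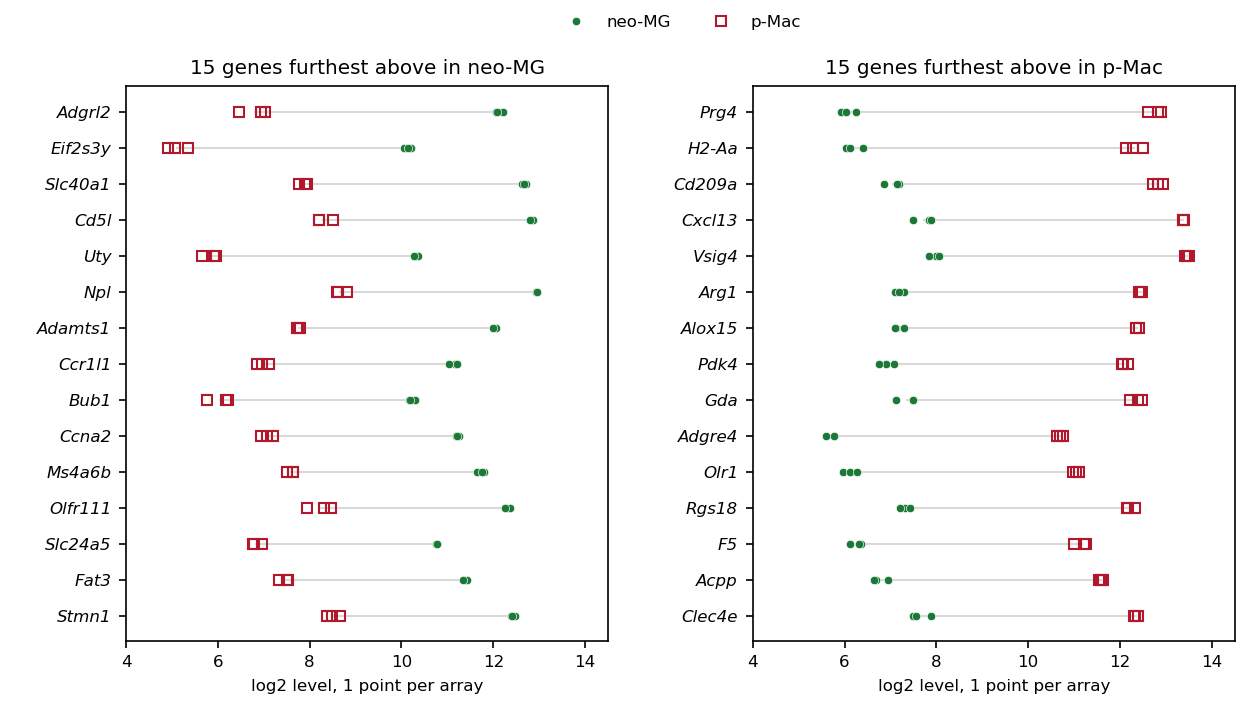
The log2 level on every array (filled green circles, neo-MG; open red squares, p-Mac) of the 15 protein-coding genes with the largest difference in each direction. The 30 genes were drawn from called genes whose arrays do not overlap. Differences run from 5.32 (Adgrl2) to 3.91 (Stmn1) among those higher in neo-MG and from -6.70 (Prg4) to -4.70 (Clec4e) among those lower.

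In p-Mac the leading gene was Prg4, which encodes the lubricating glycoprotein proteoglycan 4. Its levels were 12.88, 12.82 and 12.61 in p-Mac and 5.92, 6.04 and 6.25 in neo-MG. The measured difference, -6.70 ± 0.09, was the largest in either direction and is 104-fold lower in neo-MG (adjusted p = 1.02e-25). The neo-MG levels lie in the lowest 25% of gene values on the 6 arrays, below 7.116, and the table gives no background, so these values may be floors and the size and rank are those of the values as deposited. The same holds for other genes whose lower group lies below 7.116. H2-Aa, Cd209a, Cxcl13 and Vsig4 followed with differences of -6.13 ± 0.09, -5.77 ± 0.09, -5.64 ± 0.15 and -5.49 ± 0.11. They encode an MHC class II chain, a C-type lectin, a chemokine that attracts B cells and a receptor for fragments of complement C3. Arg1, the arginase of alternatively activated macrophages, read 12.41, 12.46 and 12.48 in p-Mac and 7.29, 7.10 and 7.19 in neo-MG, a difference of -5.26 ± 0.08. The lipoxygenase Alox15 differed by -5.19 ± 0.08, and Pdk4, a kinase that restrains pyruvate dehydrogenase, differed by -5.18 ± 0.08. The other leading genes of p-Mac encode the guanine deaminase Gda (-5.000), the adhesion receptor Adgre4 (-4.98), the receptor for oxidised lipoprotein Olr1 (-4.92), the G protein regulator Rgs18 (-4.90), coagulation factor V (-4.89, F5), the phosphatase Acpp (-4.82) and the lectin Clec4e (-4.70).

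Gene lists were read by the number of measured members called in each direction and by their median. The counts of calls are to be read against 6.02% of all genes called higher and 3.1% called lower. They were put together with earlier results of these data known. Apart from the 4 sex-linked genes, the highest medians were those of mitosis, DNA replication and interferon response, and the lowest were those of large peritoneal macrophage and MHC class II presentation.

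**Figure D3:**
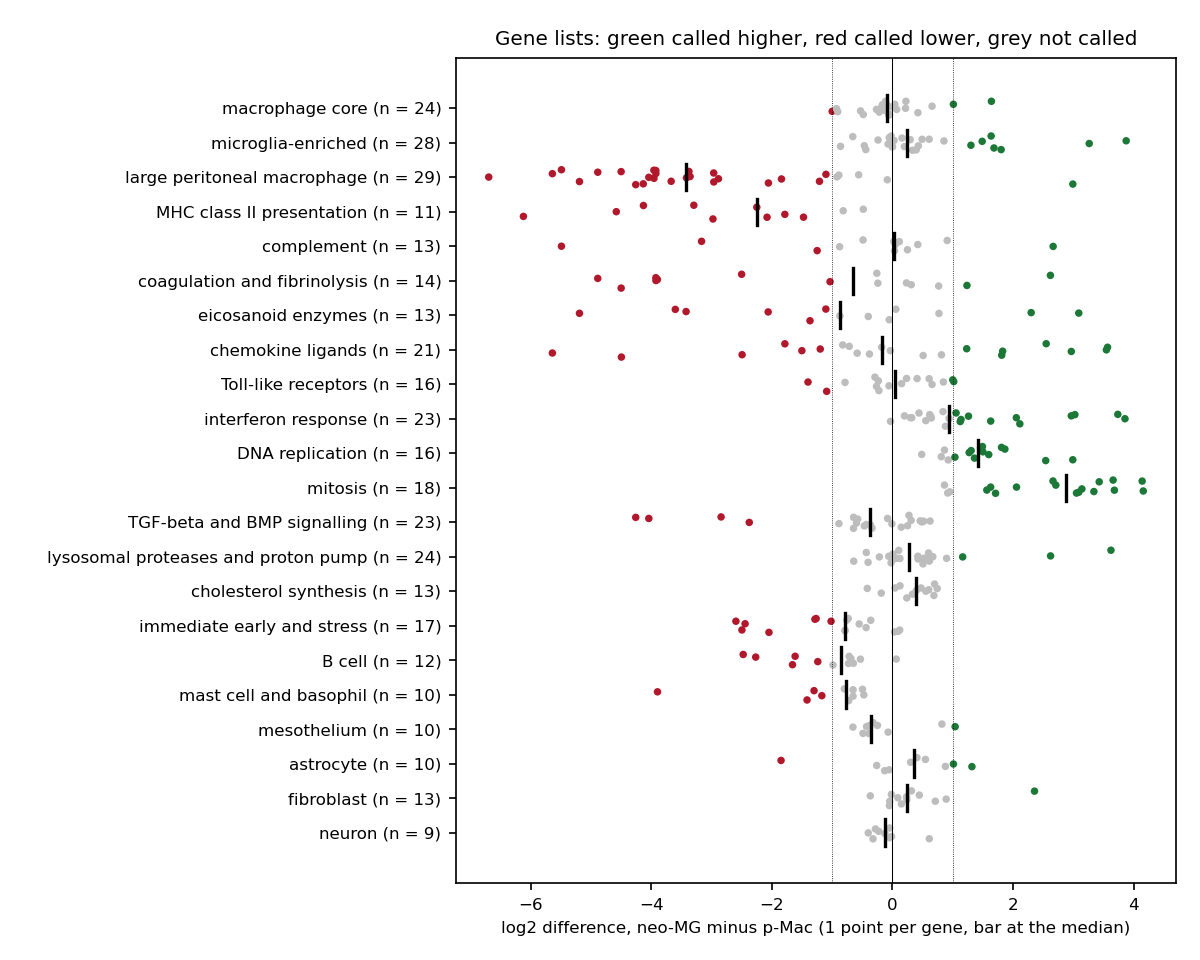
The log2 difference, neo-MG minus p-Mac, of each measured member of 22 gene lists, with a bar at the median of the list. Green points were called higher in neo-MG, red points lower and grey points were not called, and the dotted lines mark a difference of 1.

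Of the 28 measured genes of the microglia-enriched list, 7 were called higher in neo-MG, against 6.02% of all genes, and none was called lower. The median was 0.25, beside 0.17 in the genes of highest level. Fcrls, an Fc receptor-like protein of microglia, read 12.86, 12.88 and 12.81 in neo-MG and 8.996, 8.95 and 8.98 in p-Mac. The arrays were tightly grouped on either side, 3.88 ± 0.08 apart (14.7-fold, adjusted p = 5.39e-23). Gpr34, a receptor for lysophosphatidylserine, read 10.40, 10.17 and 10.03 in neo-MG and 6.99, 7.03 and 6.79 in p-Mac, a difference of 3.26 ± 0.14. The ADP receptors P2ry12 and P2ry13 were higher by 1.64 ± 0.13 and 1.80 ± 0.11, and the matrix protein Sparc and the transporter Slco2b1 by 1.68 ± 0.10 and 1.49 ± 0.10. Sall1 read 9.86, 9.76 and 9.77 in neo-MG and 8.61, 8.14 and 8.73 in p-Mac. All neo-MG arrays were above all p-Mac arrays, with more spread in p-Mac, and the difference was 1.30 ± 0.12 (adjusted p = 3.38e-10).

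The other 21 members of the list were not called. A 95% interval within 1 log2 unit of 0 was found in 20 of the 28, against 87.8% of all genes. Tmem119, a membrane protein used to tell microglia from other macrophages, read 8.37, 8.42 and 8.38 in neo-MG and 8.40, 8.51 and 8.33 in p-Mac. These arrays overlapped, and the 95% interval of the difference was -0.20 to 0.16. Cx3cr1 read 10.33, 10.26 and 10.34 in neo-MG, whose cells carry 1 copy replaced by the reporter, and 9.89, 10.13 and 9.91 in p-Mac, a difference of 0.33 ± 0.07 that stayed under the minimum (adjusted p = 0.000131). The lectin Siglech differed by -0.24 ± 0.07 and the lipid receptor Trem2 by 0.29 ± 0.06. Adult microglia of the same genotype, ad-MG, had higher levels of both Tmem119 and Cx3cr1. Tmem119 was 10.07 ± 0.20 there, so that neo-MG minus ad-MG was -1.68 ± 0.09 (adjusted p = 1.03e-14), and Cx3cr1 was 12.41 ± 0.11, with a difference of -2.10 ± 0.07 (adjusted p = 5.57e-19). Fcrls was 13.49 ± 0.10 and Gpr34 10.04 ± 0.45 in ad-MG.

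Of the 29 measured genes of the large peritoneal macrophage list, 24 were called lower in neo-MG and 1, Gas6, was called higher, with a median of -3.42. Gata6 read 11.49, 11.61 and 11.56 in p-Mac and 7.64, 7.66 and 7.48 in neo-MG. The groups were far apart, with a difference of -3.96 ± 0.07, which is 15.6-fold lower in neo-MG (adjusted p = 1.41e-24). Besides Prg4, Cxcl13 and Vsig4, the adhesion molecule Selp, the TGF-beta ligand Tgfb2 and its binding protein Ltbp1 differed by -4.14 ± 0.09, -4.04 ± 0.09 and -4.26 ± 0.09. The matrix proteins Fn1 and Thbs1 differed by -2.97 ± 0.05 and -2.97 ± 0.05. Timd4, a receptor for phosphatidylserine, read 9.21, 9.31 and 9.33 in p-Mac and 7.46, 7.42 and 7.44 in neo-MG, a difference of -1.84 ± 0.07. The adhesion molecule Icam2, a common surface marker of these cells, stayed just under the minimum at -0.92 ± 0.07. Gas6, a bridging ligand that marks dying cells for uptake, ran against the list. It read 13.13, 13.16 and 13.09 in neo-MG and 10.22, 10.24 and 9.95 in p-Mac, a difference of 2.99 ± 0.09.

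Bone marrow macrophages, bm-Mac, share strain and adult age with p-Mac and were set beside it for the same genes. These comparisons use the same p-Mac arrays, so their values are only placed side by side. Gata6 was 7.69 ± 0.04 in bm-Mac, and p-Mac minus bm-Mac was 3.86 ± 0.07 (adjusted p = 4.91e-24). Prg4 and Cxcl13 were 6.25 ± 0.06 and 6.96 ± 0.18 in bm-Mac, with differences of 6.52 ± 0.09 (adjusted p = 2.26e-25) and 6.42 ± 0.15 (adjusted p = 1.77e-21). F5, at 10.08 ± 0.09, was nearer to p-Mac, with a difference of 1.08 ± 0.08 (adjusted p = 2.44e-11). H2-Aa was 12.53 ± 0.13 in bm-Mac and differed from p-Mac by -0.23 ± 0.09 (adjusted p = 0.0359). Genes at which p-Mac was low were high in bm-Mac for some of the leading genes of neo-MG. Slc40a1 was 12.70 ± 0.03, Ccna2 11.27 ± 0.03 and Adgrl2 11.33 ± 0.06 in bm-Mac. For these, p-Mac minus bm-Mac was -4.84 ± 0.10 (adjusted p = 7.3e-23), -4.20 ± 0.09 (adjusted p = 1.24e-22) and -4.52 ± 0.09 (adjusted p = 1.38e-22).

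**Figure D4:**
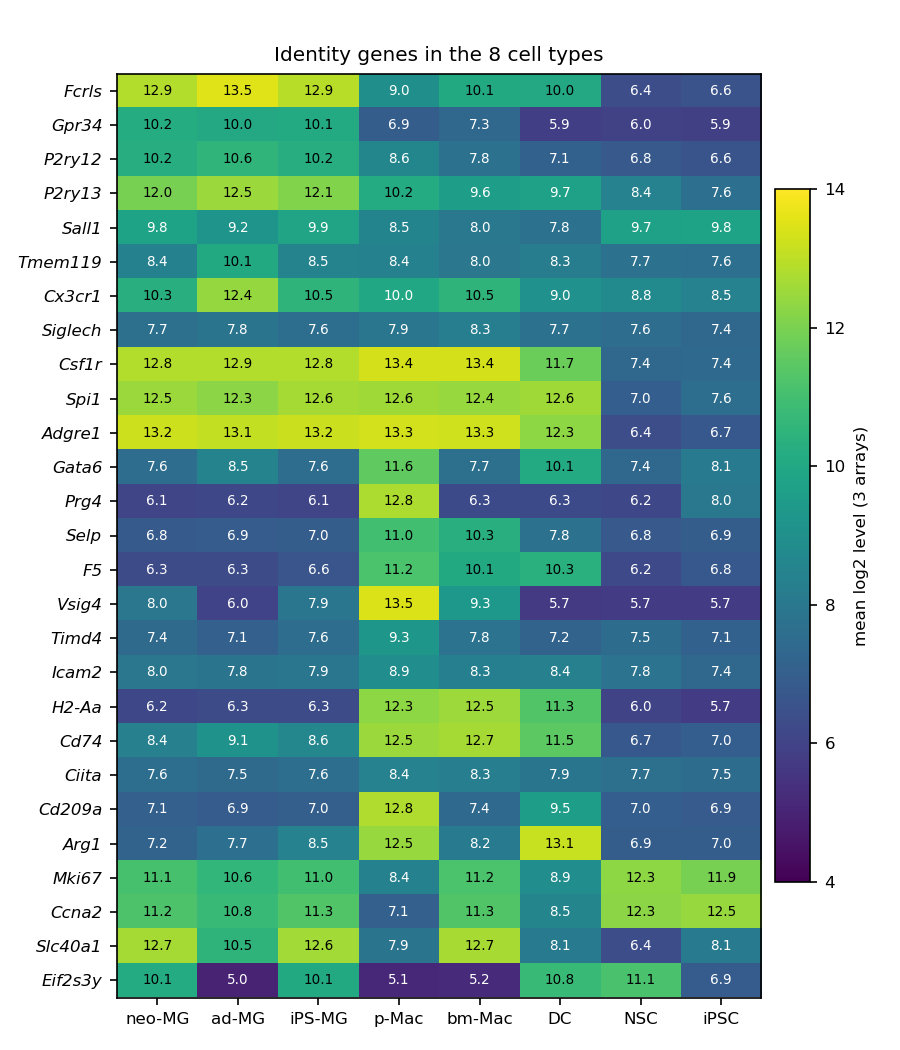
Mean log2 level over 3 arrays of 27 genes (rows) in the 8 cell types (columns), with the level written in each cell and coloured from 4 to 14. Prg4 reads 12.8 in p-Mac and 8.0 or less in the other 7 cell types, while Slc40a1 reads 12.7 in both neo-MG and bm-Mac.

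Of the 24 measured genes of the macrophage core list, 3 were called, against 9.12% of all genes, and 19 had a 95% interval within 1 log2 unit of 0, against 87.8% of all genes. The F4/80 antigen gene Adgre1 read 13.23, 13.24 and 13.20 in neo-MG and 13.36, 13.35 and 13.27 in p-Mac, with a 95% interval of -0.35 to 0.14 for the difference. The transcription factor Spi1 read 12.46, 12.55 and 12.52 and 12.53, 12.58 and 12.61, with an interval of -0.30 to 0.17. Csf1r, the receptor for colony-stimulating factor 1, differed by -0.53 ± 0.08, and the leukocyte antigen Ptprc by -0.12 ± 0.08. The immunoglobulin receptor Fcgr1 was higher in neo-MG by 1.64 ± 0.10. Aif1, the gene of the microglial stain IBA1, was called higher at 1.01 ± 0.15 and the integrin Itgam lower at -1.001 ± 0.10, both at the edge of the minimum. Of 188 called genes named by rule, 17 lost the call in at least 1 setting other than a test against the minimum itself. These were Aif1, E2f1, Efemp1, Slc1a3, Tlr1 and Tlr3 among higher genes and Cd163, Cmklr1, Ier3, Itgam, Mcpt4, P2rx7, Pf4, Pla2g7, Procr, Rarb and Tlr5 among lower genes.

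Among 27 measured myeloid transcription factors, 4 were called higher in neo-MG and 5 lower. Pparg, a nuclear receptor of lipid metabolism, read 11.81, 11.82 and 11.87 in neo-MG and 9.43, 9.73 and 9.67 in p-Mac, a difference of 2.22 ± 0.10. Besides Sall1, Etv5 (1.63 ± 0.07) and Bhlhe41 (1.34 ± 0.11) were higher. Bhlhe40, a close relative of Bhlhe41, was lower in neo-MG, with 8.21, 8.25 and 8.43 in neo-MG and 10.89, 10.75 and 10.90 in p-Mac. The difference was -2.55 ± 0.08 (adjusted p = 1.37e-19). Besides Gata6, Spic (-2.13 ± 0.10), Irf4 (-1.21 ± 0.09) and the retinoic acid receptor Rarb (-1.10 ± 0.08) were lower in neo-MG. Of the genes of the smaller peritoneal macrophage, 4 of 9 were lower, Cd209a, Retnla (-3.16 ± 0.09), Ccr2 (-1.74 ± 0.10) and Irf4, and the folate receptor Folr2 was higher by 2.29 ± 0.07. Brain border macrophage genes divided, with Mrc1 (2.42 ± 0.10), Ms4a7 (2.42 ± 0.08) and Stab1 (1.70 ± 0.08) higher and F13a1, Pf4 and Cd163 lower, of 12 measured.

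Genes of cell division were higher in neo-MG across nearly their whole lists. For mitosis, 15 of 18 measured genes were called higher and none lower, with a median of 2.88, and for DNA replication 12 of 16 and none, with a median of 1.41. Bub1, a kinase of the spindle checkpoint, read 10.30, 10.17 and 10.19 in neo-MG and 5.77, 6.18 and 6.22 in p-Mac. Ccna2, which encodes cyclin A2, read 11.26, 11.18 and 11.21 and 7.21, 7.08 and 6.94. In both genes the groups were far apart, by 4.16 ± 0.10 (adjusted p = 3.28e-21) and 4.14 ± 0.09 (adjusted p = 8.26e-23). Top2a, the topoisomerase that untangles replicated chromosomes, differed by 3.68 ± 0.09 at the probeset that stands for it, but its 3 probesets disagreed, from -0.04 to 3.68. Mki67, the Ki-67 proliferation antigen, read 11.03, 11.20 and 11.04 in neo-MG and 8.48, 8.22 and 8.43 in p-Mac, a difference of 2.71 ± 0.09 (6.55-fold). Of the replication genes, the ribonucleotide reductase subunits Rrm2 and Rrm1 differed most, by 2.99 ± 0.09 and 2.54 ± 0.07. The helicase subunits Mcm6 and Mcm2 followed at 1.87 ± 0.09 and 1.81 ± 0.08. The 3 mitosis genes under the minimum, Aurka, Cdc20 and Cenpa, were at 0.95, 0.92 and 0.86. In ad-MG, Mki67 was 10.62 ± 0.26 and Bub1 9.45 ± 0.17, and neo-MG minus ad-MG was 0.46 ± 0.09 (adjusted p = 0.000208) and 0.77 ± 0.10 (adjusted p = 9.4e-07).

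The promoters of these genes are known for a CCAAT box, bound by the factor NF-Y, and a cell cycle homology region, read here as TTTGAA and bound by complexes that silence the genes in resting cells. In RefSeq promoters of build GRCm38.p6, a window of 250 bases before to 50 after the first listed start, CCAAT on either strand was found in 14 of the 15 mitosis genes with a window. TTTGAA on either strand was found in 12 of the 15. Of all 14739 tested genes with a window, 38.3% held CCAAT and 15.1% held TTTGAA. DNA replication genes held CCAAT in 9 of 14 windows and TTTGAA in 2 of 14, near the share of all genes for the latter. Called genes as a whole stood near the background, with TTTGAA in 17.2% of 917 higher and 13.8% of 448 lower genes with a window. The last 200 bases before the start of Cdk1, the mitotic kinase, Top2a and Ccnb2, a mitotic cyclin, are shown because they hold both words, in capitals on either strand. Cdk1 and Ccnb2 were higher in neo-MG by 3.34 ± 0.09 and 3.09 ± 0.09. The windows lie at chr10:69352913-69353112 on the reverse strand, chr11:99024190-99024389 on the reverse strand and chr9:70421555-70421754 on the reverse strand.
Cdk1: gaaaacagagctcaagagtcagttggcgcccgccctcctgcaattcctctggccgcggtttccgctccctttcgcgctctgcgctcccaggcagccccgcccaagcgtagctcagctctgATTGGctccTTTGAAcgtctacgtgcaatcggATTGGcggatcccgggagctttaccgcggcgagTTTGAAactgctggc
Top2a: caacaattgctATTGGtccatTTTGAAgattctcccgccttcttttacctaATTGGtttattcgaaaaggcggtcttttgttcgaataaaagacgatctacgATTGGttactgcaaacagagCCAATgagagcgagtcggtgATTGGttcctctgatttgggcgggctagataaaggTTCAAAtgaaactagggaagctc
Ccnb2: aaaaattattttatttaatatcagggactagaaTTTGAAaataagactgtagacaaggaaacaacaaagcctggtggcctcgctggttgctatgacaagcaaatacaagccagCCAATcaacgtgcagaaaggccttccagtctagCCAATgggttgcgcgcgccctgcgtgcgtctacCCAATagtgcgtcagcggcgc
The matches are of letters only and show no binding. In Cdk1 they began 80, 71, 48 and 15 bases before the start.

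Interferon response genes were also higher in neo-MG. Of 23 measured genes, 11 were called higher and none lower, with a median of 0.94. Ifit2 read 10.73, 10.73 and 10.68 in neo-MG and 6.99, 6.93 and 6.65 in p-Mac, and Ifit3 read 12.23, 12.32 and 11.91 and 8.79, 8.38 and 8.08. Both belong to a family of antiviral proteins induced by interferon, and their groups were separated by 3.86 ± 0.10 and 3.74 ± 0.14. Ifit1 differed by 3.03 ± 0.10, the antiviral enzyme Rsad2 by 2.97 ± 0.08 and the GTPase Mx1 by 1.63 ± 0.11. Isg15, the ubiquitin-like modifier, and the regulator Irf7 were just over the minimum at 1.14 ± 0.09 and 1.12 ± 0.09. The remaining called genes were Xaf1, Rtp4, Cmpk2 and Ifi27l2a. Slfn8 was at -0.03, the lowest of the list, and 10 of the 23 had a 95% interval within 1 log2 unit of 0, against 87.8% of all genes. In ad-MG Ifit2 was 8.57 ± 0.06, below neo-MG by 2.15 ± 0.10 (adjusted p = 9.91e-16), and in bm-Mac it was 11.53 ± 0.06, above p-Mac, with a p-Mac minus bm-Mac difference of -4.68 ± 0.10 (adjusted p = 1.7e-22).

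The interferon-stimulated response element, which binds the complex of STAT and IRF factors, was searched as GAAANNGAA on both strands. This word was added after the data were seen. It was found in 11 of 16 interferon response genes with a window and in 7.99% of all tested genes with a window. Called genes as a whole held it in 9.38% of 917 higher and 8.71% of 448 lower genes with a window. Within the list it did not follow the calls. Of the called members with a window, Ifit1, Ifit3, Isg15 and Rsad2 held it, and Ifit2, Irf7, Xaf1 and Cmpk2 did not. Most uncalled members with a window, such as Slfn8, held it too. The last 200 bases before the start of Ifit3, Ifit1 and Rsad2 are shown, with each match in capitals, where it reads TTCNNTTTC on this strand. They lie at chr19:34583329-34583528 on the forward strand, chr19:34640689-34640888 on the forward strand and chr12:26456453-26456652 on the reverse strand.
Ifit3: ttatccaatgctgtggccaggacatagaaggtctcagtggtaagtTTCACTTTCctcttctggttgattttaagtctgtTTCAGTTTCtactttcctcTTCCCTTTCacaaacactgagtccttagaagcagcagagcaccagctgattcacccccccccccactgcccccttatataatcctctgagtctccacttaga
Ifit1: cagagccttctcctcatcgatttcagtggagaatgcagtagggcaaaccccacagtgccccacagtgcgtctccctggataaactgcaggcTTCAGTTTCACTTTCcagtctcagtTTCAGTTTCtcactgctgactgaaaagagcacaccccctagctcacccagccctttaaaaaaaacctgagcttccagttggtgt
Rsad2: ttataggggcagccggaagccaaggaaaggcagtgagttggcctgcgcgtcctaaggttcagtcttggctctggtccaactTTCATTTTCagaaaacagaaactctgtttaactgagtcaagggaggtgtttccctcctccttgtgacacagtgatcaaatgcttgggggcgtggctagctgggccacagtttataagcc
Ifit3 and Ifit1 hold 3 matches each in this stretch and Rsad2 holds 1, and a pair in Ifit1 overlap. Ifit2, with the largest difference of the list, held no match in its window.

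Antigen presentation by MHC class II leaned to p-Mac, with 9 of 11 measured genes called lower in neo-MG, none higher and a median of -2.25. H2-Aa, the alpha chain of the class II molecule I-A, read 12.29, 12.49 and 12.14 in p-Mac and 6.41, 6.03 and 6.11 in neo-MG. H2-Ab1, its beta chain, read 11.98, 12.11 and 12.12 and 7.40, 7.54 and 7.53. Both pairs of groups were well apart, with differences of -6.13 ± 0.09 (69.8-fold, adjusted p = 2.02e-25) and -4.58 ± 0.11 (adjusted p = 8.81e-22). Cd74, the invariant chain that guards the peptide groove, differed by -4.13 ± 0.12, H2-Eb1 by -3.30 ± 0.09 and H2-DMa, which loads peptides, by -2.98 ± 0.10. The costimulatory molecules Cd40, Cd80 and Cd86 were lower, with differences of -2.25 ± 0.08, -2.08 ± 0.07 and -1.48 ± 0.07. Ciita, the master activator of the class II genes, was at -0.82 ± 0.09, under the minimum, with 8.45, 8.39 and 8.43 in p-Mac and 7.72, 7.65 and 7.46 in neo-MG. The last 200 bases before the start of H2-Aa, at chr17:34287824-34288023 on the reverse strand, are shown because class II promoters are known for a CCAAT element, the Y box. CCAAT on either strand is in capitals. Only 6 of the 11 measured class II presentation genes have a window. Of these, 4 held CCAAT, against 38.3% of all tested genes with a window.
H2-Aa: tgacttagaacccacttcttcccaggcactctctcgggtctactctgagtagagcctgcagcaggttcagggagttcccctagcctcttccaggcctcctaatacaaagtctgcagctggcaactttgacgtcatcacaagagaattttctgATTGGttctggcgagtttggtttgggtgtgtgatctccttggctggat
The match begins 48 bases before the start.

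Some markers of other cells that carry MHC class II were lower in neo-MG too. Of 12 measured B cell genes, 5 were called lower in neo-MG (Ms4a1, Cd79a, Fcmr, Bank1 and Ebf1) and none higher, and the mean level over the list was 8.43 to 8.81 in p-Mac and 7.40 to 7.47 in neo-MG. The B cell receptor gene Cd79a read 8.06, 8.99 and 8.44 in p-Mac and 6.16, 6.14 and 6.38 in neo-MG, and Ms4a1, which encodes CD20, read 8.58, 8.63 and 7.82 and 5.90, 5.92 and 5.77. All p-Mac arrays were above all neo-MG arrays in both, with differences of -2.27 ± 0.15 and -2.48 ± 0.14. The receptor component Cd79b was at -0.65, the lineage factor Pax5 at -0.73 and the immunoglobulin gene Ighm at -0.53. Of 9 dendritic cell genes, Cd209a, also a gene of the smaller peritoneal macrophage, and Clec9a (-2.50 ± 0.11) were lower and none was higher. The other 7 were not called, and the list median was -0.44, beside -0.21 in the genes of lowest level. The factor Zbtb46 was at -0.26, and the list mean was 8.46 to 8.55 in p-Mac and 7.25 to 7.38 in neo-MG. The part of these cells in the class II difference was not tested. H2-Ob, a class II chain characteristic of B cells, was highest in p-Mac replicate 2, at 9.36, 10.05 and 9.15 in replicates 1 to 3, as was Cd79a. Without that array the differences of H2-Ob and Cd79a were -1.52 and -2.02, against -1.79 and -2.27 with it.

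Chemokines divided between the cell types, with 7 of 21 measured genes called higher in neo-MG and 6 lower. Ccl8 read 10.48, 10.32 and 10.13 in neo-MG and 6.56, 6.74 and 6.93 in p-Mac, and Ccl12 read 10.14, 10.09 and 10.08 and 6.50, 6.87 and 6.29. These chemokines of the monocyte-attracting group were separated by 3.57 ± 0.11 and 3.55 ± 0.13. Ccl7 (2.97 ± 0.12) and Ccl2 (1.81 ± 0.07), of the same group, were higher too, as were Ccl4 (2.55 ± 0.14), Ccl5 (1.83 ± 0.08) and Cxcl10 (1.23 ± 0.12). In p-Mac Cxcl13 read 13.38, 13.39 and 13.38, against 7.84, 7.88 and 7.49 in neo-MG. Ccl24, an attractant of eosinophils, read 11.91, 11.56 and 11.89 and 7.17, 7.39 and 7.31. The groups did not overlap, and the differences were -5.64 ± 0.15 and -4.50 ± 0.09. Ppbp (-2.50 ± 0.12), Cxcl14 (-1.79 ± 0.13), Cxcl2 (-1.50 ± 0.15) and Pf4 (-1.20 ± 0.09) were also lower in neo-MG. Of 13 receptors for chemoattractants, 5 were called lower in neo-MG and none higher, while 4 were lower and 1 higher after centring. The 5 were Ccr1 (-3.52 ± 0.10), Ccrl2 (-1.88 ± 0.09), Ccr2, Cxcr4 (-1.35 ± 0.12) and Cmklr1 (-1.18 ± 0.08). Cxcl13 was 9.92 ± 0.33 in ad-MG, and neo-MG minus ad-MG was -2.19 ± 0.15 (adjusted p = 6.29e-12).

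**Figure D5:**
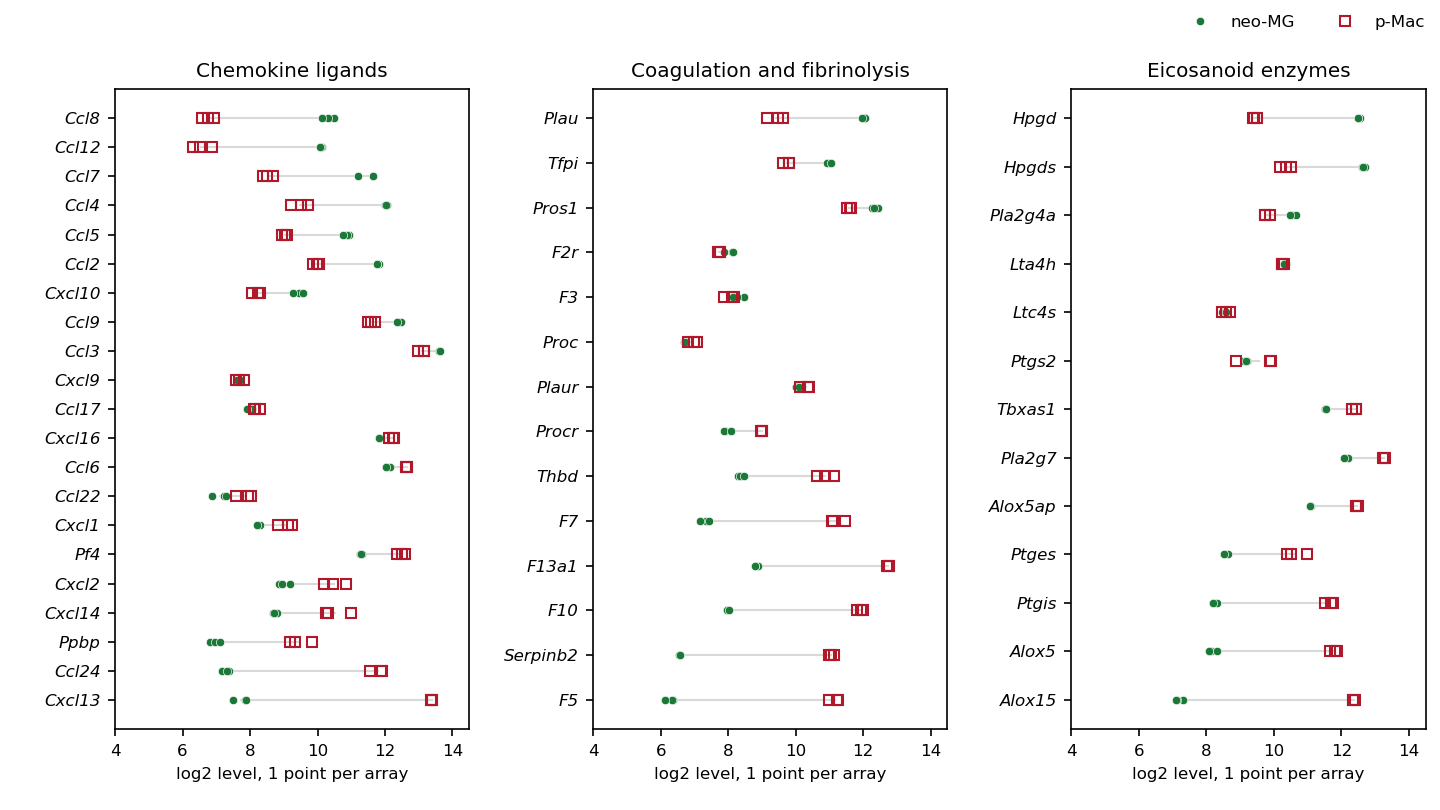
The log2 level on every array (filled green circles, neo-MG; open red squares, p-Mac) of 21 chemokines, 14 coagulation and fibrinolysis genes and 13 eicosanoid enzymes, ordered by difference. The rows run from genes higher in neo-MG at the top, led by Ccl8, Plau and Hpgd, to Cxcl13, F5 and Alox15 at the bottom.

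Of 18 cytokine and inflammasome genes, 3 were called higher in neo-MG and 5 lower. Tnf, the tumour necrosis factor gene, read 10.72, 10.69 and 10.68 in neo-MG and 8.85, 8.66 and 8.69 in p-Mac, 1.97 ± 0.08 apart. Il1b, which encodes interleukin 1 beta, ran the other way and was uneven, at 10.88, 9.03 and 10.53 in p-Mac against 7.78, 7.84 and 7.76 in neo-MG. The difference was -2.35 ± 0.26, and without p-Mac replicate 2, its lowest p-Mac array, it was -2.91. The inflammatory caspases Casp1 (1.73 ± 0.10) and Casp4 (1.25 ± 0.12) were higher in neo-MG. Sensors that act upstream of Casp1 were lower, Nlrc4 (-1.84 ± 0.07), Naip6 (-1.53 ± 0.10), Nlrp3 (-1.52 ± 0.09) and Naip5 (-1.50 ± 0.08). Naip genes are near-identical copies, so probes may take up RNA of a relative. Of 16 Toll-like receptor genes, 12 were not called. Tlr1 (1.02 ± 0.09) and Tlr3 (1.000 ± 0.07) were higher at the edge of the minimum, and Tlr8 (-1.40 ± 0.10) and Tlr5 (-1.09 ± 0.08) were lower.

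Of 14 coagulation and fibrinolysis genes, 7 were called lower in neo-MG and 2 higher. F5 read 11.22, 11.001 and 11.27 in p-Mac and 6.37, 6.32 and 6.13 in neo-MG, and Serpinb2, an inhibitor of plasminogen activation, read 11.03, 10.99 and 11.15 and 6.56, 6.53 and 6.57. The arrays of the groups were widely separated, with differences of -4.89 ± 0.08 and -4.50 ± 0.08. Factors X (F10), XIII (F13a1) and VII (F7) differed by -3.93 ± 0.08, -3.93 ± 0.11 and -3.90 ± 0.09. The anticoagulant receptors Thbd and Procr differed by -2.50 ± 0.10 and -1.04 ± 0.09. Tissue factor, F3, was at 0.23 ± 0.09 and the urokinase receptor Plaur at -0.26 ± 0.11. Urokinase itself, Plau, read 12.05, 12.07 and 11.98 in neo-MG and 9.62, 9.16 and 9.46 in p-Mac, higher by 2.62 ± 0.10, and the inhibitor Tfpi was higher by 1.24 ± 0.08.

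Of 13 complement genes, 1 was called higher in neo-MG and 3 lower. The C1q chains, of which resident macrophages are a main source, were at 0.25 for C1qa, 0.03 for C1qb and 0.05 for C1qc. C2 was higher in neo-MG, at 10.02, 9.98 and 10.14 against 7.32, 7.47 and 7.35 in p-Mac, a difference of 2.67 ± 0.07. The factor that serves the alternative pathway in its place, Cfb, was lower at 7.82, 7.92 and 7.90 against 11.20, 11.23 and 10.72, a difference of -3.17 ± 0.10. Properdin, Cfp, which stabilises the alternative convertase, was lower with a difference of -1.25 ± 0.06, and Vsig4 was the remaining lower gene. Of 15 matrix and protease genes, 3 were higher and 5 lower in neo-MG. The collagenase Mmp13 (1.90 ± 0.10), Plau and Sparc were higher. The proteases Mmp8 (-3.21 ± 0.16), Mmp9 (-2.33 ± 0.08) and Mmp14 (-1.37 ± 0.09), Fn1 and Thbs1 were lower. Neutrophils are known for Mmp8 and Mmp9. Of 15 granulocyte genes, these, Csf3r and Ngp (-1.61 ± 0.09) were lower and none was higher, with list means of 7.94 to 7.98 in p-Mac and 7.01 to 7.08 in neo-MG. The neutrophil proteins S100a8 and S100a9 were at -0.88 and -0.40 and were not called, and the part of granulocytes in the protease values was not tested.

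Eicosanoid enzymes, which turn arachidonic acid into leukotrienes and prostaglandins, differed in 8 of 13 genes, 6 lower and 2 higher in neo-MG. Alox15 read 12.36, 12.41 and 12.36 in p-Mac and 7.30, 7.13 and 7.10 in neo-MG, and Alox5 read 11.81, 11.86 and 11.68 and 8.13, 8.08 and 8.32. Each pair was far apart, with differences of -5.19 ± 0.08 and -3.60 ± 0.08, and the partner protein Alox5ap differed by -1.37 ± 0.07. The prostacyclin synthase Ptgis (-3.43 ± 0.09) and the prostaglandin E synthase Ptges (-2.06 ± 0.10) were lower in neo-MG as well, and so was the phospholipase Pla2g7 (-1.11 ± 0.11). Hpgd, the enzyme that breaks prostaglandins down, read 12.55, 12.51 and 12.50 in neo-MG and 9.50, 9.38 and 9.40 in p-Mac, 3.09 ± 0.08 apart. Hpgds, which makes prostaglandin D, was higher by 2.30 ± 0.10. The inducible cyclooxygenase Ptgs2 was at -0.40 ± 0.17 and was not called.

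Arginine and alternative activation genes divided, with Arg1, Ccl24, Slc7a2 and Retnla of 11 lower in neo-MG and Mrc1 higher. The arginine transporter Slc7a2 read 11.27, 11.28 and 11.20 in p-Mac and 7.66, 7.80 and 8.09 in neo-MG, a difference of -3.40 ± 0.08. Chil3 was at -0.17, the nitric oxide synthase Nos2 at -0.10 and the interleukin 4 receptor Il4ra at -0.09, and none of these was called. Retinoid genes were of interest since vitamin A derivatives induce Gata6. Of 17, 5 were called lower, against 3.1% of all genes, and none higher. The list median, -0.21, became 0.0006 after centring, so no direction is given for the list. After centring 4 lower calls remained, without Rarb. The receptors Rara (-1.86 ± 0.07), Rarg (-1.52 ± 0.07) and Rarb, the retinaldehyde dehydrogenase Aldh1a2 (-1.57 ± 0.10) and the transglutaminase Tgm2 (-3.37 ± 0.09), a known target of retinoic acid, made up the 5. Arg1 was 8.16 ± 0.11 in bm-Mac, and p-Mac minus bm-Mac was 4.29 ± 0.08 (adjusted p = 4.91e-24).

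Of 19 scavenger and phagocytic receptor genes, Gas6, Mrc1 and Stab1 were higher in neo-MG, and Olr1, Cd209b, Marco, Timd4 and Cd163 were lower. Marco, a receptor for bacteria, read 10.32, 10.37 and 9.92 in p-Mac and 7.33, 7.40 and 7.34 in neo-MG, a difference of -2.85 ± 0.09. Cd209b, another C-type lectin, was uneven in p-Mac, at 10.48, 9.39 and 10.53, against 6.82, 6.80 and 6.61 in neo-MG. Its difference was -3.39 ± 0.17, and without replicate 2 of p-Mac it was -3.76. The receptor tyrosine kinases Mertk and Axl, which bind Gas6, were at -0.48 and -0.58 and were not called. Of 17 C-type lectins and Siglecs, 4 were lower in neo-MG and none higher, Cd209a, Clec4e, Clec4n (-2.05 ± 0.08) and Siglece (-1.38 ± 0.08). Of 7 Fc receptor genes, Fcgr4 (1.96 ± 0.12) and Fcgr1 were higher in neo-MG and none was lower.

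Genes that microglia raise around lipid-rich debris were higher in 4 of 18, with none lower. The lipoprotein lipase Lpl read 13.60, 13.57 and 13.49 in neo-MG and 11.95, 12.04 and 11.90 in p-Mac, a difference of 1.59 ± 0.07. The protease inhibitor Cst7 (1.62 ± 0.13), the lysosomal membrane protein Cd63 (1.38 ± 0.08) and the fatty acid carrier Fabp5 (1.33 ± 0.08) were the others. Apoe was at -0.10 and Gpnmb at 0.33. Lysosomal proteases and the proton pump were called in 3 of 24 genes, all higher. Mcoln3, an ion channel of endosomes and lysosomes, read 10.76, 10.94 and 10.74 in neo-MG and 7.09, 7.30 and 7.17 in p-Mac. Its difference, 3.63 ± 0.09, exceeded those of its relative Mcoln2 (2.62 ± 0.09) and of the cathepsin Ctsk (1.16 ± 0.08), while the third channel, Mcoln1, was at -0.02. Of 13 iron and haem genes, the exporter Slc40a1 and the importer Slc11a2 (1.49 ± 0.07) were higher and the ferroxidase Cp was lower, with a difference of -1.68 ± 0.07. The ferritin chain Ftl1 was at -0.44 and the transferrin receptor Tfrc at 0.61. In the 13 cholesterol synthesis genes no member was called, against 9.12% of all genes. Every 95% interval of the list lay within 1 log2 unit of 0, against 87.8% of all genes.

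In the signalling and adhesion lists given here, more calls were lower than higher in neo-MG, but the counts were small. Of all genes, 6.02% were called higher and 3.1% lower. Of 23 TGF-beta and BMP genes, 4 were lower in neo-MG and none higher, the ligands Tgfb2 and Bmp2 (-2.84 ± 0.12), the latent form's partner Ltbp1 and the coreceptor Tgfbr3 (-2.38 ± 0.08). Tgfb1, the ligand that microglia depend on, was at 0.52 ± 0.08, and the receptor Tgfbr1 at -0.47 ± 0.09. Of 19 growth factor and cytokine receptors, Csf3r (-1.89 ± 0.10) and Il10ra (-1.73 ± 0.09) were lower and Il21r (1.08 ± 0.08) was higher. Of 11 purinergic genes, P2ry13 and P2ry12 were higher, and Nt5e, the enzyme that makes adenosine, P2rx1 (-1.73 ± 0.08), P2ry1 (-1.63 ± 0.11) and P2rx7 (-1.17 ± 0.06) were lower. Nt5e read 11.22, 11.17 and 11.15 in p-Mac and 7.28, 7.01 and 7.37 in neo-MG, a difference of -3.96 ± 0.12. Of 23 integrin and adhesion genes, Itgb3 (2.47 ± 0.10) and Itga5 (1.22 ± 0.06) were higher, and Selp, Itga4 (-1.67 ± 0.09), Itgal (-1.44 ± 0.09) and Itgam were lower. After centring, the purinergic list and this list each had 3 lower and 2 higher calls, without P2rx7 and Itgam.

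Immediate early genes, which respond within minutes to handling and other stimuli, were lower in 7 of 17 and higher in none, with a median of -0.79. The nuclear receptor Nr4a1 read 11.74, 10.92 and 11.53 in p-Mac and 8.87, 8.85 and 8.67 in neo-MG, a difference of -2.60 ± 0.13. Btg2 (-2.50 ± 0.09), Egr2 (-2.45 ± 0.12), Nr4a2 (-2.05 ± 0.08), Fos (-1.29 ± 0.08), Egr1 (-1.27 ± 0.07) and Ier3 (-1.02 ± 0.08) were the others, and Jun was at -0.36. For Nr4a1, Btg2 and Egr2 the lowest p-Mac array was replicate 2, still above every neo-MG array. The part of cell handling in other results was not tested.

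The sex of the animals is not given in the labels, and sex-linked genes differed. The Y-linked Eif2s3y read 10.21, 10.05 and 10.14 in neo-MG and 5.08, 4.91 and 5.34 in p-Mac, and Uty read 10.29, 10.36 and 10.28 and 5.97, 5.67 and 5.92. The groups were separated by 5.03 ± 0.10 and 4.46 ± 0.08, and Kdm5d, also on the Y chromosome, by 2.22 ± 0.13. Xist, the RNA of the inactive X chromosome, was high in both, at 12.10, 12.13 and 12.12 in neo-MG and 13.04, 13.12 and 12.93 in p-Mac, a difference of -0.91 ± 0.06. The sex of the animals and the cell type cannot be told apart between these groups.

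Markers of further cell types were compared to describe what else each preparation could hold. Of 10 mast cell and basophil genes 4 were lower in neo-MG and none higher, with list means of 7.28 to 7.48 in p-Mac and 6.24 to 6.26 in neo-MG. The called genes were Cpa3, Mrgprb1, Tpsb2 and Mcpt4. The protease Cpa3 read 9.35, 8.59 and 9.43 in p-Mac and 5.22, 5.21 and 5.24 in neo-MG, a difference of -3.90 ± 0.12. Its lowest p-Mac array was again replicate 2, and without it the difference was -4.17. The receptor chain Fcer1a was at -0.73 and Kit at -0.65. Of 10 T and NK cell genes only Il7r was called (-1.69 ± 0.12), and the T cell receptor chain Cd3e was at -0.41. Of 8 monocyte genes 4 were lower in neo-MG, Hp (-4.55 ± 0.12), F13a1, Ccr2 and Vcan (-1.27 ± 0.11). Of 10 mesothelium genes, Efemp1 (1.04 ± 0.09) was higher and none lower, with Msln at -0.43. On the side of the brain, of 10 astrocyte genes Gfap (1.32 ± 0.10) and Slc1a3 (1.01 ± 0.08) were higher and Aldoc (-1.85 ± 0.07) was lower, with list means of 8.34 to 8.39 in neo-MG and 8.08 to 8.23 in p-Mac. Gfap, the filament protein of astrocytes, read 9.07, 8.86 and 9.13 in neo-MG and 7.62, 7.81 and 7.68 in p-Mac, without overlap. Of 13 fibroblast genes Postn (2.36 ± 0.07) was higher and none lower, with list means of 8.03 to 8.04 in neo-MG and 7.61 to 7.74 in p-Mac. No gene was called among 9 neuron, 8 oligodendrocyte lineage and 10 endothelium and mural cell genes. With 9.12% of all genes called, few or no calls in lists this short do not show that such cells are absent. The part of these cells in the differences above was not tested.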

How the data were processed

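The deposited values are on the log2 scale, in 1 table over 24 arrays. The submitters' processing notes name RMA and Partek, with no settings. The medians and spreads of the probeset values differ between the arrays, and the notes do not say if all 24 were normalized together. Levels of different genes rest on different probes and are not compared. RNA (200 ng per sample, per the labels) of 3 neo-MG and 3 p-Mac samples was compared.

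Of 21218 probesets that name a single gene, the one with the highest mean per gene was kept. A limma fit (version 3.58.1, R 4.3.3) held all 24 arrays with 8 group means, so the spread is pooled over cell types, and gave neo-MG minus p-Mac. P-values were adjusted by Benjamini-Hochberg over 18820 genes. The fit was tested on simulated data with known changes. Promoters are RefSeq's (GRCm38.p6), matched by gene ID for 14739 genes.

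The comparison, gene lists and alternatives were chosen with earlier results of these data known. Genes were named by rule: the 15 protein-coding genes with the largest difference in each direction, 25 fixed genes, every member of lists of up to 20 genes, and the 3 highest and 3 lowest members of longer lists. Ccl2, Ccl4, Ccl5, Ccnb2, Cdk1, Cmpk2, Cxcl10, Cxcl14, Cxcl2, Ifi27l2a, Irf7, Isg15, Mcoln1, Mx1, Rsad2, Rtp4, Slco2b1, Tgfbr3 and Xaf1 lie outside this rule and were named after their values were seen. Alternatives covered the arrays fitted, centring, a second quantile normalization, the probeset rule, a filter on low values, the call rule, trend and robust variance, a replicate block and leaving out each array.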

Additional observations from a re-analysis of the deposited data

How the results depend on the processing

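None of the 188 called genes named by rule changed direction in any setting tried. Only a second quantile normalization, the probeset rule and leaving out an array could have changed it. The other settings keep the difference or shift all genes alike, so for them this adds no support. Genes named outside the rule were not checked in this way. Of 45 list medians, 11 changed sign after centring and 5 after a second quantile normalization, and the median of all genes moved from -0.14 to 0.07 with centring. Beside 1133 higher and 584 lower calls, centring each array on its median gave 1638 and 424, and a second quantile normalization gave 1139 and 598. Leaving out any 1 of the 6 arrays gave 1081 to 1179 higher and 582 to 599 lower calls. With no minimum difference, 5174 genes were higher and 8450 lower, so lower calls outnumbered higher ones, with 15 higher in the microglia-enriched list and 21 in interferon response. A test against the minimum itself (limma's treat) gave 738 higher and 397 lower, with 7 in interferon response, and 25 of 188 named called genes lost the call. In the other settings together, 17 of these 188 lost it. A fit with the replicate block gave 1133 and 584. Deviations of same-numbered samples correlated at 0.00901, -0.0812 and -0.0537 for numbers 1 to 3, so the numbers were not taken to pair the samples. The number of arrays, 3 per group, limits the precision, and the table used here gives no signal over background.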

Other observations

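Differences depended on the level of a gene. With the 18820 genes split by mean level into 4 sets of 4705, the median difference from the lowest to the highest set was -0.21, -0.25, 0.04 and 0.17. Higher calls numbered 18, 180, 510 and 425 in these sets, and lower calls 30, 117, 258 and 179.

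Probesets that name no gene, or more than 1, were left out of the tests. Among these 14338, a difference of at least 1 without overlap of the arrays was seen in 465 that were higher in neo-MG and 1014 that were lower, with a median difference of -0.21. Among the 21218 probesets that name a single gene, the same rule gave 1425 higher and 620 lower.

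The known motif of GATA factors, searched as AGATAA on both strands, was found in 2 of 21 windows of large peritoneal macrophage genes (9.52%) and in 9.46% of all tested genes. Called genes lower in neo-MG held it in 9.82% of 448 windows, and called genes higher in 5.67% of 917. The core letters bound by PU.1, GAGGAA, were found in 27.1% of all tested genes, 26.2% of the higher and 31% of the lower genes.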
